A study of Mus musculus with 47 samples.

Results

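The 37 mitochondrially encoded transcripts of the mouse are the genes whose symbols begin with mt- in the deposited gene table, and they make up 37 of its 45706 genes. They comprise 13 mRNAs, 2 ribosomal RNAs and 22 transfer RNAs, and they were followed through all 47 libraries of the study. The libraries come from prefrontal cortex (PFC, the front of the cortical mantle) and hippocampus (HIP) of DIO mice, that is mice made obese by diet, which were housed in pairs. All groups share that state, and no lean group was used here. The mice received saline, 56 mg/kg mPD5 (an inhibitor of the synaptic scaffold protein PICK1, labelled PICK1i) or 25 mg/kg UCCB01-147 (an inhibitor of the scaffold PSD-95, labelled PSD-95i) once a day for 5 days. Tissue was taken 2 hours after the last injection. The pairing of each compound with its label rests on general knowledge of the compounds. PFC was represented by 8 libraries per treatment, and hippocampus by 7 saline, 8 PICK1i and 8 PSD-95i libraries. Strain, sex and age are not given in the labels, and the treatment protocol names hypothalamus rather than the 2 tissues in the sample labels. The same protocol gives 6 saline mice, against the 8 PFC and 7 hippocampal saline libraries, and whether every library stands for its own mouse is not stated in the labels. Where libraries share a mouse, the p-values reflect only library-to-library spread, which may be technical.

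Mitochondrial DNA is a small circle that is transcribed from both strands into long precursor RNAs. Enzymes cut the transfer RNAs out of these precursors, which frees the mRNAs and the ribosomal RNAs between them. Most of the mRNAs are given short poly(A) tails. Each mRNA encodes a core subunit of the respiratory chain or of ATP synthase, the rest of which come from nuclear genes, and the ribosomal RNAs build the ribosome inside the mitochondrion. In brain tissue these transcripts are among the most abundant polyadenylated RNAs.

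Several of the genes share letters with a neighbour or with a copy in the nuclear genome, and those stretches decide how reads could be assigned to them. The sequences are from GENCODE release M21 on build GRCm38. mt-Atp8, the gene with the widest spread between libraries, lies at chrM:7766-7969 and ends inside mt-Atp6 (chrM:7927-8607). The 43 shared bases are in capitals.
mt-Atp8: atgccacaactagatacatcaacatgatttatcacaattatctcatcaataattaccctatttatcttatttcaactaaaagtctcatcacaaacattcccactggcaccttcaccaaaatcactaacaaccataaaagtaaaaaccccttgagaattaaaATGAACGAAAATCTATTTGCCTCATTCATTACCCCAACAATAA
mt-Atp6, first bases: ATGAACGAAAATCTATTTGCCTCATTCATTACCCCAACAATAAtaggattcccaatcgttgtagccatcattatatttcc
mt-Nd4l (chrM:9877-10173) and mt-Nd4 (chrM:10167-11544) share 7 bases, again in capitals.
mt-Nd4l, last bases: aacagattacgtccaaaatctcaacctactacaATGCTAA
mt-Nd4, first bases: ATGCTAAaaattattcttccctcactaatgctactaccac
Of the 13 mRNAs, 10 end in a complete stop codon as annotated and 3 end in a single base after the last whole codon, shown in capitals here. The tail of adenines completes such a stop codon.
mt-Co3, last bases: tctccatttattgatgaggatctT
mt-Nd4, last bases: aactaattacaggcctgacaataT
mt-Cytb, last bases: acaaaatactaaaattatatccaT
Pseudogenes on chromosome 1 repeat 7 of the mRNAs in whole or in part. Over the aligned stretch the copies of mt-Co2, mt-Atp6, mt-Co3, mt-Nd4 and mt-Nd4l (Gm28661, Gm10925, Gm28437, Gm28439 and Gm10222) had 0 mismatches, over 681, 678, 783, 876 and 294 bases. Gm29216 differed from mt-Co1 at 1 of 483 aligned bases, A1066T, and Gm28438 from mt-Nd3 at 1 of 345, T3C, with positions counted from 1 at the first base of the mitochondrial gene. The differing base is in capitals.
mt-Co1 beside Gm29216: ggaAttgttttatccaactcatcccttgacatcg
Gm29216 beside mt-Co1: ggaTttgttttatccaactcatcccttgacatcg
mt-Nd3 beside Gm28438: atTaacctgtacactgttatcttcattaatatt
Gm28438 beside mt-Nd3: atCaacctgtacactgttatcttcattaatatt
Counts of these 7 genes could therefore be split with their copies, and their absolute levels are uncertain to that extent. mt-Nd6 is the only mRNA annotated on the opposite strand (chrM:13552-14070), and its composition differs accordingly. It holds 28.1% G, against 5.88 to 16.1% in the other 12 mRNAs.

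Library totals ran from 5.38 to 13.1 M counts (M, mega), with a median of 8.03 M. A pair of libraries stood apart in the mitochondrial share. PFC PICK1i replicate 1 had the highest share of mitochondrial counts, and it is shown apart below. HIP PICK1i replicate 7 went against its tissue label: its summed level of 4 hippocampal markers (Prox1, Wfs1, Fibcd1 and Iyd) was 117.8 CPM (counts per M), against 240 to 541 CPM in the other 22 hippocampal libraries and 92.4 to 172 CPM in PFC. Its 3 thalamic markers (Tcf7l2, Prkcd and Rora) summed to 1225 CPM, against 44.5 to 149 CPM in those 22 libraries. Markers of neighbouring tissue were also present elsewhere. Among all hippocampal libraries, choroid plexus markers ran from 17.1 to 5399 CPM and striatal markers from 50.5 to 1743 CPM. In PFC, saline replicate 1 had striatal markers at 469 CPM, PICK1i replicate 6 had olfactory markers (Doc2g, Cdhr1 and Eomes) at 310 CPM, and PSD-95i replicate 6 had the latter at 40.5 CPM. In bulk tissue, fewer cells of a type and less RNA per cell cannot be told apart.

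Mitochondrial transcripts took a mean of 9.53 to 10.5% of all counts in the 6 groups. In PFC, the share was 8.41, 10.04 and 11.4% (lowest, median and highest) after saline, 8.21, 9.66 and 16.7% after PICK1i, and 8.37, 9.41 and 11.4% after PSD-95i. In hippocampus it was 8.45, 9.36 and 10.9% after saline, 8.98, 10.1 and 14.2% after PICK1i, and 9.12, 9.92 and 11.2% after PSD-95i. All 6 groups overlapped. Group means were 9.97% ± 0.965 (SD, n = 8), 10.5% ± 2.72 (SD, n = 8) and 9.68% ± 1.11 (SD, n = 8) in PFC. They were 9.53% ± 0.808 (SD, n = 7), 10.5% ± 1.69 (SD, n = 8) and 10.04% ± 0.767 (SD, n = 8) in hippocampus, in the order saline, PICK1i and PSD-95i. The share is a sum over the chosen genes, so no p-value is given for it. The difference of PICK1i from saline in PFC was 0.543 percentage points with all libraries and -0.342 points without replicate 1 of the PICK1i group. In hippocampus the same difference was 1.01 points, or 0.487 points without replicate 7. Each of these differences was smaller than the pooled SD of its 2 groups, 2.04 points in PFC and 1.35 points in hippocampus with all libraries.

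**Figure D1:**
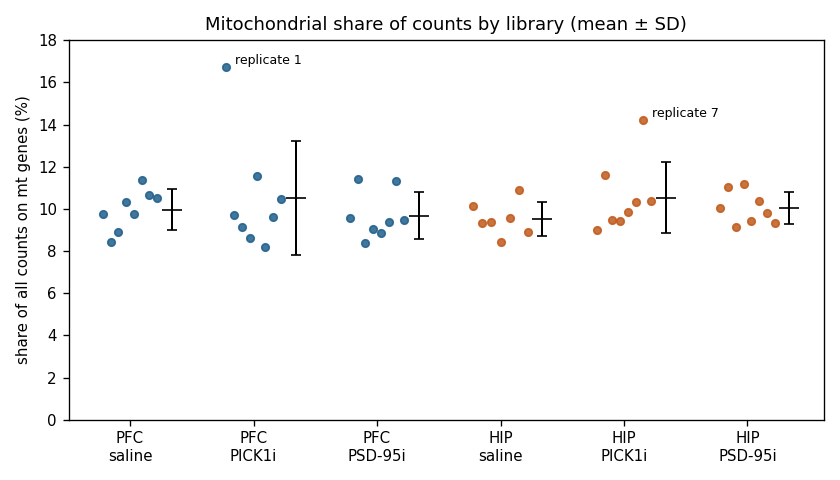
Share of all counts on the 37 mitochondrial genes (vertical axis, %) in each of 47 libraries, by tissue and treatment; points are libraries in replicate order and bars are mean ± SD. PFC PICK1i replicate 1 at 16.7% and HIP PICK1i replicate 7 at 14.2% lie above all others, which sit between 8.21 and 11.6%.

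The mRNAs carried most of these counts. Levels of different genes were compared per length, as CPM per kb of annotated transcript averaged over 47 libraries. No correction for fragment length was made. mt-Nd4l, mt-Atp8 and mt-Nd3, the shortest mRNAs at 297, 204 and 348 bases, held ranks 12, 13 and 14 of 15. The part of length in their rank was not tested. mt-Co1, the catalytic subunit of cytochrome c oxidase (complex IV), was highest at 15483 CPM per kb. mt-Co2, which accepts the electrons from cytochrome c, followed at 11617 CPM per kb, and then mt-Atp6, the proton channel subunit of ATP synthase, at 11118 CPM per kb. mt-Co1 exceeded mt-Co2 in 47 of 47 libraries, but mt-Co2 exceeded mt-Atp6 in 42 and mt-Atp6 exceeded mt-Cytb in 36. mt-Cytb, the cytochrome of complex III, stood at 10748 CPM per kb, mt-Nd1 of complex I at 9727 and mt-Co3 of complex IV at 8040. These last 3 were ordered the same way in 47 of 47 libraries.

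The subunits of complex I spread over the rest of the scale. mt-Nd4 (5792 CPM per kb) and mt-Nd2 (5617), both in the proton-pumping membrane arm, could not be ordered beyond their spread, since mt-Nd4 was the higher in 33 of 47 libraries. mt-Nd5 reached 3693 CPM per kb and mt-Nd4l 2799. mt-Atp8, a small subunit of ATP synthase, averaged 1999 CPM per kb and mt-Nd3 averaged 1618, with mt-Atp8 above mt-Nd3 in 29 of 47 libraries. mt-Nd6 was lowest at 184 CPM per kb, and mt-Nd3 exceeded it in 47 of 47 libraries, by 8.78-fold on the geometric mean. The 2 ribosomal RNAs lay in the middle of the scale, mt-Rnr1 (of the small ribosomal subunit) at 5118 and mt-Rnr2 (of the large one) at 3901 CPM per kb. The libraries were made from poly(A)-selected RNA, so these levels describe the polyadenylated part of each transcript. That part can differ between transcripts, and the part of the selection in the low level of mt-Nd6 was not tested.

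**Figure D2:**
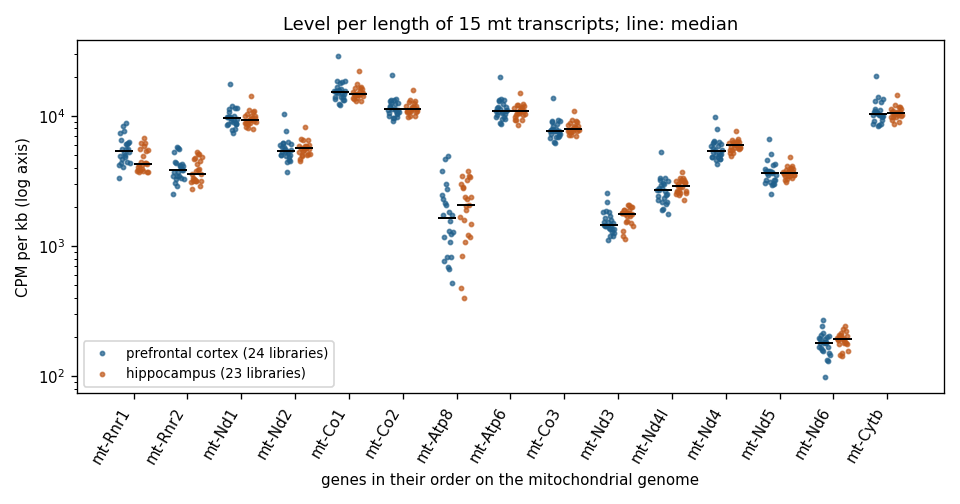
Level per transcript length (vertical log axis, CPM per kb) of the 15 mitochondrial mRNAs and ribosomal RNAs, in gene order along the mitochondrial genome, with each library as a point and a line at the tissue median. mt-Co1 is highest at a mean of 15483, mt-Nd6 is lowest at 184, and the points of mt-Atp8 are the most scattered.

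The transfer RNAs were almost unseen. The 22 of them together had between 2 and 28 counts per library, with a median of 8. mt-Tm, the methionine transfer RNA, had the most, with at most 9 counts in a library and counts in 37 of 47. Another 7 (mt-Tf, mt-Ti, mt-Ta, mt-Td, mt-Tc, mt-Tr and mt-Tt) had 0 counts in all 47, which allows a level of up to 0.228 to 0.558 CPM per library (3 counts of its total, covering counting error only). None of the 22 passed the filter on low counts, and none was tested. The 15 members tested below are therefore the 13 mRNAs and the 2 ribosomal RNAs.

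Relative to each other, most of the mRNAs kept nearly fixed proportions. The measure here is a gene's count as a percentage of the summed counts of the 13 mRNAs in the same library. For an mRNA that sum includes its own count, which damps the spread of large ones such as mt-Co1. mt-Co1 made up 25.2 to 29.1% of that sum in PFC and 25.3 to 27.9% in hippocampus. mt-Nd1 varied least, with an SD within groups of 0.032 on the log2 scale, and mt-Co1 followed with 0.043. Of the 13 mRNAs, 9 had an SD between 0.032 and 0.081. The other 4 were mt-Nd4l (0.12), mt-Nd3 (0.18), mt-Nd6 (0.22) and mt-Atp8 (0.86), which are the 3 shortest mRNAs and the one from the opposite strand.

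mt-Atp8 had the widest spread inside groups of the 13 mRNAs. In PFC its percentage of mitochondrial mRNA was 0.15, 0.484 and 1.03% (lowest, median, highest) after saline, 0.168, 0.387 and 0.913% after PICK1i, and 0.102, 0.306 and 0.427% after PSD-95i. In hippocampus it was 0.116, 0.595 and 0.828% after saline, 0.101, 0.4 and 0.743% after PICK1i, and 0.258, 0.489 and 0.91% after PSD-95i. The PFC PSD-95i libraries did not reach as high as those of the other 5 groups, and all groups overlapped. mt-Nd3 moved with it: the log2 percentages of the pair, centred on their group means, correlated at r = 0.87 across 47 libraries. These values share their library and their denominator, so the correlation is a description. mt-Atp8 correlated with the other short mRNA, mt-Nd4l, at r = -0.16.

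The ribosomal RNAs also moved together, at r = 0.96 between mt-Rnr1 and mt-Rnr2 on the same scale. Together they came to 9.22 to 22.6% of the mRNA sum. The highest values were in PFC PICK1i replicates 4 and 7, at 22.6 and 21.4%, against 9.43 to 14.5% in the other 6 libraries of that group. The ratio of mt-Rnr2 to mt-Rnr1 counts had a higher mean in hippocampus under each treatment. In PFC it was 1.22 ± 0.0787 (SD, n = 8), 1.17 ± 0.0664 (SD, n = 8) and 1.16 ± 0.0666 (SD, n = 8) for saline, PICK1i and PSD-95i in turn. In hippocampus it was 1.36 ± 0.0916 (SD, n = 7), 1.35 ± 0.0961 (SD, n = 8) and 1.41 ± 0.0673 (SD, n = 8). With PSD-95i the tissues did not overlap (1.31 to 1.51 in hippocampus, 1.07 to 1.25 in PFC), whereas with saline or PICK1i they did. This ratio was singled out after its values were seen and was not tested.

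**Figure D3:**
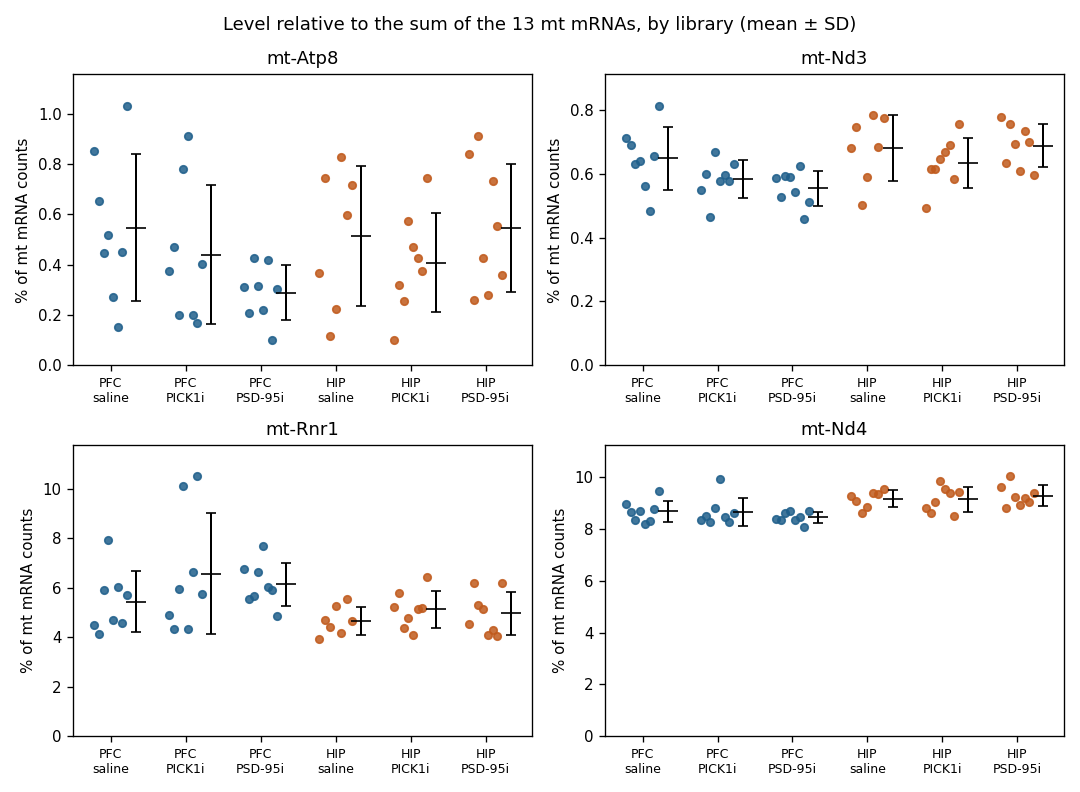
Counts of mt-Atp8, mt-Nd3, mt-Rnr1 and mt-Nd4 as a percentage of the summed counts of the 13 mitochondrial mRNAs (vertical axes), in each library by group, with mean ± SD. mt-Atp8 spreads from 0.101 to 1.03% while mt-Nd4 stays between 8.09 and 10.04%.

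No mitochondrial transcript passed the test for either inhibitor in PFC. Each drug comparison asks what the inhibitor changed in that tissue, with edgeR's quasi-likelihood test over all tested genes and a Benjamini-Hochberg adjusted p under 0.05 counted as a call. After PICK1i, 30 of 14911 genes were called (0.201%) and 0 of 15 members. By an unadjusted p under 0.05, 0 members passed, and DESeq2 and limma voom also called 0. The members' log2 fold changes ran from -0.19 to 0.27 with a median of 0.07, against a median of 0.01 over all genes tested. The largest was that of mt-Rnr1. Its level was 3164, 4590 and 7103 CPM (lowest, median, highest) after saline and 3870, 5127 and 8469 CPM after PICK1i, and the groups overlapped. Its log2 fold change was 0.27 ± 0.16 (SE), with an adjusted p of 0.924 by edgeR's quasi-likelihood test.

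After PSD-95i in PFC, 13 of 15 members had negative log2 fold changes and 0 were called, as were 0 of 14911 genes (0%). The unadjusted p was under 0.05 for 2 members and for 946 genes. DESeq2 called 0 members and 2 genes, and limma voom called 0 of either. The 2 members were mt-Atp8 and mt-Nd3. mt-Atp8 was at 155, 453 and 955 CPM after saline and at 105, 255 and 350 CPM after PSD-95i, so that the higher saline libraries had no counterpart but the ranges overlapped. Its log2 fold change was -1.01 ± 0.41 (SE), with an adjusted p of 0.701 by edgeR's quasi-likelihood test. mt-Nd3, a complex I subunit, was at 493.1, 553 and 752 CPM after saline and at 416, 468 and 546 CPM after PSD-95i. Its log2 fold change was -0.29 ± 0.13 (SE), with an adjusted p of 0.719 by the same test. The other 13 members lay between -0.21 and 0.10. The members' median was -0.07, against 0.00 over all genes tested.

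The 2 inhibitors were given at different doses (25 and 56 mg/kg), so the values of PSD-95i and PICK1i stand side by side. Between their PFC libraries 50 of 14911 genes were called (0.335%) and 0 of 15 members, with 0 members under an unadjusted p of 0.05 and 0 called by DESeq2 or limma voom. All 15 log2 fold changes of PSD-95i against PICK1i were negative, from -0.82 for mt-Atp8 to -0.06 for mt-Co3. PFC PICK1i replicate 1 is among the libraries on the PICK1i side, and without it the difference in the share of counts went from -0.831 to 0.0545 percentage points.

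In hippocampus the drug comparisons called 0 of 15051 genes each, 0% for PICK1i, 0% for PSD-95i and 0% between the 2, and hence 0 members. DESeq2 and limma voom called 0 genes too, and 0 members had an unadjusted p under 0.05 in any of the 3. The unadjusted p was under 0.05 for 580, 231 and 734 genes in that order. After PICK1i, 14 of 15 members had positive log2 fold changes, with a median of 0.12 against 0.00 over all genes. The largest belonged to mt-Rnr1 (3505, 3670 and 5331 CPM after saline, 3610, 4422 and 6425 CPM after PICK1i), at 0.27 ± 0.14 (SE) with an adjusted p of 0.956 by edgeR's quasi-likelihood test. HIP PICK1i replicate 7, which went against its tissue label, is among these PICK1i libraries. It lay above the rest of its group in 14 of 15 members, and the 6425 CPM of mt-Rnr1 is its value. Without it, the difference in the share of counts from saline went from 1.01 to 0.487 percentage points. After PSD-95i all 15 members had positive log2 fold changes, from 0.04 for mt-Nd6 to 0.22 for mt-Rnr2, with a median of 0.08. Both comparisons use the same 7 saline libraries, so their shared direction is not a second observation.

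**Figure D4:**
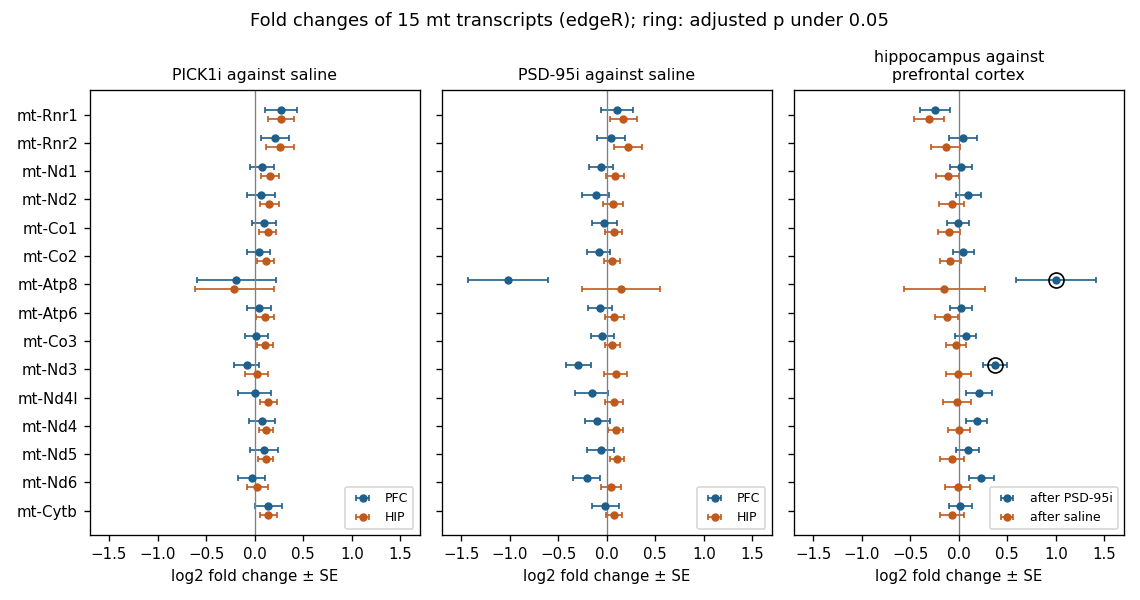
Log2 fold changes ± SE (horizontal axes) of the 15 mitochondrial mRNAs and ribosomal RNAs from edgeR, for PICK1i against saline, PSD-95i against saline and hippocampus against PFC; rings mark an adjusted p under 0.05. The 2 rings are mt-Atp8 at 1.00 and mt-Nd3 at 0.37 in hippocampus against PFC after PSD-95i.

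With the sum of the 13 mRNAs in place of the library total, the fits ask whether a transcript moved relative to that sum. For an mRNA, the sum includes its own count. None of the 15 members was called in a drug comparison on that scale. These fits share estimates of spread across all genes tested, so an SE can be wider than a member's own ratios give. The genes called were 6 of 14911 (0.0402%), 0 (0%) and 5 (0.0335%) in PFC for PICK1i, PSD-95i and the 2 against each other, and 0 of 15051 (0%, 0% and 0%) in hippocampus. mt-Atp8 after PSD-95i in PFC was the only member with an unadjusted p under 0.05, at a log2 fold change of -0.93 ± 0.40 (SE) and an adjusted p of 1.00 by edgeR's quasi-likelihood test. DESeq2 with the same scaling called 0 members in these 6 comparisons.

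Between tissues, many other genes were called and few of the mitochondrial ones. After saline, 5994 of 15658 genes (38.3%) were called between hippocampus and PFC, and 0 of 15 members. After PICK1i it was 5756 genes (36.8%) and 0 members. After PSD-95i it was 7046 genes (45%) and 2 members, mt-Nd3 and mt-Atp8, both higher in hippocampus. The unadjusted p was under 0.05 for 0 members after saline and for 1 after PICK1i, mt-Rnr1. DESeq2 called 0, 0 and 2 members in the 3 comparisons, and limma voom 0, 1 and 4. The 4 were mt-Nd3, mt-Nd4, mt-Nd4l and mt-Nd6.

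mt-Nd3 after PSD-95i was at 416, 468 and 546 CPM in PFC (lowest, median, highest), against 499, 609 and 716 CPM for hippocampus. The higher hippocampal libraries exceeded all PFC ones, and the ranges overlapped between 499 and 546 CPM. The log2 fold change was 0.37 ± 0.12 (SE), with an adjusted p of 0.0124 by edgeR's quasi-likelihood test. Relative to the mRNA sum it was 0.31 ± 0.10 (SE), with an adjusted p of 0.014 by the same test. Scaled by the geometric mean of the mRNAs instead of their sum, it was 0.19 and was not called (adjusted p 0.0687 by edgeR). After PSD-95i, mt-Atp8 was at 105, 255 and 350 CPM in the PFC libraries, against 240, 452 and 775 CPM in the hippocampal ones, with overlap between 240 and 350 CPM. Its log2 fold change was 1.00 ± 0.41 (SE), with an adjusted p of 0.0418 by edgeR's quasi-likelihood test. Relative to the mRNA sum it was 0.92 ± 0.40 (SE), and the adjusted p was 0.0811. The call of mt-Atp8 was lost in 10 of 47 fits that left out 1 library, with adjusted p up to 0.0905 by edgeR, and that of mt-Nd3 in 0 of 47. The mt-Atp8 call was also lost with no filter (adjusted p 0.0734 by edgeR), with transcript counts (0.0566), with limma voom (0.0684) and with 2 surrogate variables (0.127). Both genes share letters with a neighbour or a copy. With the counts of the nuclear copies added to their mitochondrial genes, 2 members were again called. mt-Atp6, which overlaps mt-Atp8, was not called after PSD-95i, with means of 7388 CPM in PFC and 7496 CPM in hippocampus. The mt-Atp8 values are therefore counts assigned to that short gene. The part of read assignment in its difference was not tested.

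These tissue differences were not shown to depend on the drug. The test of the PSD-95i effect in hippocampus against that in PFC called 0 of 15658 genes (0%) and 0 members, with 428 genes and 1 member, mt-Nd3, under an unadjusted p of 0.05. DESeq2 and limma voom called 0 genes. mt-Nd3 had a log2 difference of effects of 0.38 ± 0.18 (SE), and mt-Atp8 one of 1.15 ± 0.58 (SE). For PICK1i the same test called 1 gene (0.00639%) and 0 members, with 0 members under an unadjusted p of 0.05 and 0 called by DESeq2 or limma voom.

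mt-Rnr1 had a negative log2 fold change in hippocampus under all 3 treatments and was not called. Its log2 fold change against PFC was -0.31 ± 0.16 (SE) with saline, -0.31 ± 0.15 (SE) with PICK1i and -0.24 ± 0.15 (SE) with PSD-95i, with adjusted p of 0.121, 0.11 and 0.194 by edgeR's quasi-likelihood test. mt-Rnr1 was one of the genes whose call after PICK1i depended on single libraries: it passed without HIP PICK1i replicate 7 (adjusted p 0.0441 by edgeR) and without PFC PICK1i replicate 2 (0.0478). After saline it passed without PFC saline replicate 2 (adjusted p 0.0499 by edgeR) or HIP saline replicate 6 (0.0484). Without PFC PICK1i replicate 1, mt-Co3 and mt-Nd4l were called higher in hippocampus after PICK1i, at 0.21 and 0.31 on the log2 scale (adjusted p 0.044 and 0.0268 by edgeR). mt-Rnr2 lay at -0.13, -0.09 and 0.04 in the same 3 comparisons. In the same tissue comparisons the summed oligodendrocyte markers (6 of 6 detected) ranged from 1256 to 3045 CPM in PFC and from 1779 to 10076 CPM in hippocampus, and the summed neuron markers from 8382 to 10391 and from 5049 to 7196 CPM. The part of cell composition in the mitochondrial levels was not tested.

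Relative to the mRNA sum, 3780 genes (24.1%) were called between tissues in the saline groups, 3507 (22.4%) in the PICK1i groups and 4529 (28.9%) in the PSD-95i groups, with 0, 0 and 1 members called. The 1 was mt-Nd3. mt-Nd4, of the complex I membrane arm, was the only member whose percentage of mRNA did not overlap between tissues in a treatment. The share of all genes without overlap was not counted, so this gives no measure of how unusual mt-Nd4 was. After PSD-95i the PFC libraries had 8.09, 8.42 and 8.71% (lowest, median, highest), against 8.82, 9.23 and 10.04% for hippocampus. Its log2 fold change was 0.13 ± 0.07 (SE), with an adjusted p of 0.131 by edgeR's quasi-likelihood test, and DESeq2 called it (adjusted p 0.00376). The SD of its log2 percentage was 0.036 in PFC and 0.061 in hippocampus, while the edgeR fit shares spread across all genes. After saline the PFC libraries had 8.19, 8.68 and 9.49%, against 8.63, 9.30 and 9.57% for hippocampus, and the tissues overlapped. After PICK1i, mt-Nd4l was not called (adjusted p 0.107 by edgeR's quasi-likelihood test, log2 fold change 0.18). It passed under DESeq2 (adjusted p 0.034) and, at 0.20, without PFC PICK1i replicate 1 (adjusted p 0.0385 by edgeR).

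In PFC PICK1i replicate 1 most mitochondrial transcripts were high while their proportions stayed close to those of its group. Of the 15 members, 13 stood above each of the other 46 libraries in CPM, and the exceptions were mt-Atp8 and mt-Rnr1. The excess over the median of the other 7 libraries of its group ran from 1.47-fold for mt-Nd6 to 2.25-fold for mt-Nd4l, with a median of 1.84-fold. mt-Co1 was at 44296 CPM there and at 18715 to 27784 CPM in the other 7. As percentages of the mRNA sum, 14 of 15 members lay within the range of those 7 libraries, and mt-Nd4l was just above it at 0.958% against 0.781 to 0.95%. The ribosomal RNAs came to 10.5% of the mRNA sum, within the 9.43 to 22.6% of the others.

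Nuclear-encoded respiratory genes were high in the same library. The summed complex I subunits (37 genes) were at 3360 CPM, against 2206 to 2596 CPM in the other 7 PFC PICK1i libraries, and those of complex IV (11 genes) at 2371 against 1394 to 1787 CPM. The 58 mitochondrial ribosomal protein genes were at 1805 against 1365 to 1511 CPM. Its oligodendrocyte markers (6 of 6 detected) were at 3045 against 1464 to 2266 CPM, its astrocyte markers (5 of 5) at 496 against 611 to 859 CPM, and its endothelial markers (4 of 4) at 257 against 165 to 213 CPM. Its neuron markers (6 of 6) were at 10080 against 8467 to 9679 CPM, and the 9 biogenesis regulators were low, at 207.5 against 218 to 289 CPM. The nuclear-retained RNAs, among them Malat1, lay inside the range of the others at 14734 against 11275 to 16222 CPM. The part of these in the high share was not tested.

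HIP PICK1i replicate 7, the library with thalamic markers, was also high. Of the 15 members, 14 lay above the other 7 libraries of its group, from 1.19-fold for mt-Nd6 to 1.53-fold for mt-Rnr1 over their median, but 0 exceeded all other 46 libraries. The proportions among the members differed more: 6 of 15 lay outside the range of the other 7, including mt-Nd1 at 10.9% of the mRNA sum against 10.03 to 10.6%. Its oligodendrocyte markers stood at 10076 CPM against 1779 to 6863 CPM, and its summed complex I subunits at 3734 against 2183 to 2689 CPM. Their part in these values was not tested.

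Counts on the nuclear copies were a small and variable percentage of those on the mitochondrial genes. BLAST found 16 annotated nuclear genes with at least 90% identity over at least 100 bases, of which 11 had a mean of at least 10 counts. Together they took 0.162 to 0.56% of all counts, or 1.87 to 4.02% of the mitochondrial counts. Gm29216 was the largest, with a mean of 10089 counts, and it had 4.23 to 6.32% as many counts as mt-Co1 outside PFC PICK1i replicate 1 and 5.55% in it. The copies on chromosome 2, Gm13340 and Gm13341, had 0.519% and 0.578% of the counts of mt-Co1 and mt-Co2 in that library, within the ranges of the other 46 (0.205 to 0.725% and 0.18 to 0.829%). In CPM all 11 copies were higher there than in any other library. Gm10925, the copy of mt-Atp6, was at 844 CPM against 153 to 554 CPM. Reads from identical stretches cannot be assigned to one locus, so counts on copies without mismatches give no level of the nuclear locus. Gm29216 and Gm28438 match their mitochondrial genes outside 1 aligned base, so reads away from that base share this limit.

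**Figure D5:**
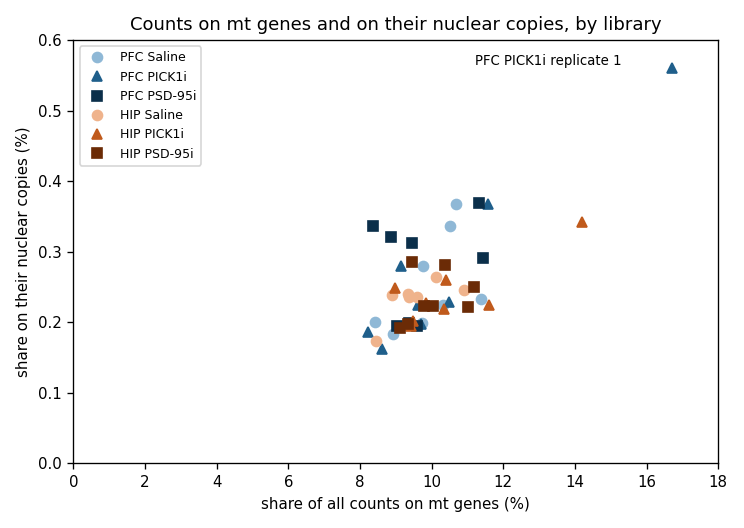
Share of all counts on the nuclear copies (vertical axis, %) against the share on the 37 mitochondrial genes (horizontal axis, %), with 1 point for each of 47 libraries. PFC PICK1i replicate 1 is highest on both axes, at 0.56% and 16.7%.

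The nuclear genes that run mitochondrial gene expression passed no test in the drug comparisons. Lists of 137 genes for mitochondrial transcription, RNA processing, DNA replication, translation, ribosomal proteins, biogenesis and stress, and of 74 nuclear respiratory subunits, had 132 and 71 members tested. In each of the 6 drug comparisons edgeR called 0 genes of either list. Of all genes tested in PFC, 0.201% were called for PICK1i against saline and 0.335% for PSD-95i against PICK1i. The share was 0% in the remaining drug comparisons. With so few calls among all genes, 0 calls in 132 and 71 genes do not set these lists apart. Between tissues after saline, 10 of the 132 were called higher in hippocampus and 8 lower, after PICK1i 16 and 7, and after PSD-95i 17 and 12, where 38.3, 36.8 and 45% of all genes were called. Top1mt, the topoisomerase of mitochondrial DNA, was higher in hippocampus at a log2 fold change of 0.58 ± 0.09 (SE) after saline, as was Dguok, which makes deoxyguanosine nucleotides for its replication, at 0.56 ± 0.10 (SE). Lrpprc, a protein that stabilises mitochondrial mRNAs, was higher at 0.27 ± 0.05 (SE). Mrps35 and Mrpl48, proteins of the mitochondrial ribosome, were lower at -0.37 ± 0.10 (SE) and -0.26 ± 0.05 (SE). Among the stress response genes, Phgdh, the entry enzyme of serine synthesis, was higher at 0.60, and the transcription factor Atf4 was lower at -0.37 ± 0.08 (SE). Of the 71 respiratory subunits, 0 were called higher and 1 lower after saline (Cox8a of complex IV, at -0.23 ± 0.08, SE), and 1 higher (Ndufb2 of complex I) and 1 lower (Cox8a) after PICK1i.

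Across all 47 libraries, the genes outside the mitochondrial genome that most resembled the summed 13 mRNAs were led by a nuclear copy of one of them. The measure was Pearson's r of log2 CPM after centring on group means, over 11507 genes with a mean of at least 50 counts, and it describes libraries that share their depth and dissection. The 10 highest were Gm29216 (r = 0.88), Uqcr11 (0.86), Rpl23 (0.84), Pfdn2 (0.83), Nudc (0.83), Myl6 (0.83), Serf2 (0.82), Tceb2 (0.82), Ubxn1 (0.82) and Fkbp2 (0.81). Gm29216 is the nuclear copy of mt-Co1, Uqcr11 is a subunit of complex III and Rpl23 a protein of the cytosolic ribosome. Gm29216 differs from mt-Co1 at 1 of 483 aligned bases, and mt-Co1 is part of the sum. The r of Gm29216 therefore does not describe the nuclear locus. Without PFC PICK1i replicate 1, the r of Uqcr11 was 0.77 and that of Gm29216 0.82.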

How the data were processed

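RNA was sequenced from 47 poly(A)-selected bulk libraries in 6 groups. The authors deposited estimated counts per gene and per transcript; per the submitters' processing notes, bcl2fastq 2.20.0, STAR, Salmon and build GRCm38 were used. The strand setting and options of the counting are not stated in the labels. The members and gene lists were chosen with earlier results of these data known. Estimated counts were rounded, filtered (filterByExpr, minimum count 10), scaled by TMM and tested with edgeR 4.0.16 (quasi-likelihood, Benjamini-Hochberg adjusted p under 0.05) in R 4.3.3, within each tissue for drugs and over both for tissue contrasts. A second fit used the summed 13 mitochondrial mRNAs as library size. DESeq2 1.42.0, limma 3.58.1 and sva 3.50.0 were alternatives. The fits were tested on simulated counts with a common spread for genes, and a smaller one for the mitochondrial mRNAs in the second fit. The wide spread of mt-Atp8 was not simulated, so the simulation gives no check of results for that gene. Levels are CPM of the filtered library total multiplied by its TMM factor. That factor was lowest in PFC PICK1i replicate 1 (0.932), which raises the CPM values of that library. Genes named outside the members are the 10 with the highest correlation, up to 3 called genes per list and direction with the smallest p, and nuclear copies with a mean of at least 10 counts. Nuclear copies were sought with blastn 2.17.0 (90% identity, 100 bases) among annotated transcripts, where a search of whole chromosomes had been planned. Replicate numbers showed no consistent pairing: correlations of same-numbered libraries ran from -0.282 to 0.405, and in no comparison were all over 0.1. These correlations cannot exclude that libraries share a mouse. Of 161 within-group pairs, none agreed within sampling noise (chi-square per gene 3.04 to 78.4). At totals of 5.38 to 13.1 M counts, 3 counts equal 0.228 to 0.558 CPM of the unscaled total. The cause of the low transfer RNA counts was not tested. The calls among nuclear respiratory subunits between tissues after PSD-95i are not reported here.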

Additional observations from a re-analysis of the deposited data

Results flagged for a closer look

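Within 204 groups of values, 16 values from 6 libraries lay far from the rest of their group by Dixon's criterion, which chance alone meets in about 1 group in 20. PFC PICK1i replicate 1 gave 7 of the 16. Its share of mitochondrial counts was 16.7%, against 8.21 to 11.6% in the other 7 libraries. mt-Co1 stood at 44296 CPM there (18715 to 27784 CPM in the others), mt-Nd1 at 16942 CPM and mt-Co2 at 14149 CPM. mt-Atp6 was at 13592 CPM, mt-Co3 at 10749 CPM and mt-Nd4l at 1556 CPM. HIP PICK1i replicate 7, which carried thalamic markers, was far above its group for mt-Co1 (33971 CPM) and mt-Nd1 (13519 CPM). Both ribosomal RNAs were high in HIP saline replicate 6, mt-Rnr1 at 5331 CPM against 3505 to 4026 CPM and mt-Rnr2 at 7402 CPM against 4334 to 5609 CPM.

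The other 5 concern a gene's percentage of the mRNA sum. In HIP PICK1i replicate 1, mt-Atp6 was low at 7.25% (8.19 to 8.72% in the others) and mt-Cytb high at 14.8% (13.2 to 13.8%). In PFC PSD-95i replicate 8, mt-Co3 was low at 6.599% (6.96 to 7.25%) and mt-Nd4l at 0.608% (0.84 to 0.955%). In PFC PICK1i replicate 5, mt-Nd4 was high at 9.94% (8.26 to 8.82%).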

How the results depend on the processing

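In the 6 drug comparisons and both drug-by-tissue tests, 0 members were called under each alternative run. The counts that moved are those between tissues. Leaving out 1 library gave 0 to 1 members after saline (1, mt-Rnr1, without PFC saline replicate 2 or HIP saline replicate 6), 0 to 2 after PICK1i (2, mt-Co3 and mt-Nd4l, without PFC PICK1i replicate 1, and 1, mt-Rnr1, without PFC PICK1i replicate 2 or HIP PICK1i replicate 7) and 1 to 2 after PSD-95i. After PICK1i, limma voom called 1. After PSD-95i, where 2 were called, the fit with no filter gave 1, transcript counts 1, limma voom 4 and 2 surrogate variables 4. Each of these 4 fits lost mt-Atp8, and limma voom called mt-Nd4, mt-Nd4l and mt-Nd6 beside mt-Nd3, the surrogate variables mt-Rnr2, mt-Nd4 and mt-Nd6. mt-Nd3 passed in all 60 alternatives there. Relative to the mRNA sum, the count after PICK1i was 1 at an adjusted p under 0.1, 1 with DESeq2, 0 to 2 with 1 library left out and 2 without both libraries that stand apart, an alternative chosen after seeing the data. After PSD-95i it was 2 at an adjusted p under 0.1, 2 with DESeq2 and 3 with only the groups compared; scaled by the geometric mean, mt-Rnr1 passed instead of mt-Nd3 (adjusted p 0.0687). The cause was not tested. The share in PFC PICK1i replicate 1 was 15.1% for the mRNAs alone and 20.1% of the counts on all other genes. The replicate block left 2 members called after PSD-95i and 0 in the other comparisons, and 1 relative to the mRNA sum, and changed no count of calls. Among 12915 alternative values of single members, 15 lost a call, 27 gained one and 86 moved by more than 1 SE. No called value changed sign, while 497 uncalled ones did, all with a reported size of at most 0.24 on the log2 scale. The transfer RNAs had too few counts to be tested, and identical or nearly identical nuclear copies limit the levels of 7 mRNAs.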
